A study of Mus musculus with 14 samples.

Results

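The 10 genes described here encode 5 secreted ligands of the TGF-beta superfamily, namely Bmp2, Bmp4, Bmp5, Bmp7 and Tgfb2, and 5 receptors of such ligands, namely Tgfbr1, Bmpr1a, Tgfbr2, Bmpr2 and Tgfbr3. Their PRDM16 peaks were those of wild-type (WT) ventricles whose summit had one of these genes as the nearest of 21887 protein-coding genes, measured to the gene body in the RefSeq table for GRCm38. This rule gave 50 of 17587 WT peaks, of which 32 lay nearest to ligand genes and 18 nearest to receptor genes. All 10 genes had a peak, against 32.6% of all protein-coding genes, but they were proposed with their peaks known, so that nothing is read from that count. The nearest gene is an assignment by distance and need not be the gene on which a bound site acts.

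PRDM16, a zinc-finger transcription factor, was mapped by ChIP-seq (chromatin immunoprecipitation and sequencing) in mouse ventricles at E13.5 (the embryonic day), with atria removed and tissue crosslinked by EGS and formaldehyde. Prdm16cKO ventricles, which carry a conditional knockout of Prdm16, gave 1 PRDM16 library and WT ventricles 2, each from a pool of 3 hearts. Right ventricles (RV) and left ventricles (LV) of WT embryos gave 2 PRDM16 libraries each, from pools of 10 to 12 ventricles. Every group is labelled C57BL/6, WT samples carry the label Mock for genetic manipulation, and no label names the Cre driver of the knockout. Each of the 4 tissue and genotype classes also had inputs, chromatin without antibody, as 7 of the 14 samples. No library measured RNA, so that the level of these genes, the cell types that hold the peaks and the loss of Prdm16 in the knockout were not checked here. The libraries of each ventricle are lettered A and B, letters that carry no replicate number. WT peaks held 281797 reads in RV A and 267808 in RV B, against 330443 in LV A and 184244 in LV B. A WT peak held a median of 8 to 9 reads in an RV library and 6 to 10 in an LV library, so that low peaks are imprecise. The labels list the samples of a group as separate. The p-values worked out here rest on the spread between libraries, with variances moderated over all regions. What the authors' p-values measure is not known, since their test is not named.

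BMP and TGF-beta ligands bind a type II receptor, which phosphorylates a type I receptor, and the type I receptor in turn phosphorylates SMAD proteins that enter the nucleus. BMP2 acts in the atrioventricular canal and valve-forming cushions of the embryonic heart, where BMP4, BMP5 and BMP7 overlap with it in cushion and outflow tract formation, and TGFB2 is needed for valve remodelling and outflow tract septation. TGFBR1 and BMPR1A are type I receptors, TGFBR2 and BMPR2 are type II receptors, and TGFBR3, or betaglycan, is a co-receptor that presents TGFB2 to the signalling receptors. PRDM16 itself is known to bind SMAD and SKI proteins.

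Among those of these genes that have a promoter window, Bmpr1a held a PRDM16 peak in it. The RefSeq promoter table (GRCm38.p6) matched 7 of the 10 genes, with 8 windows of 250 bases before a start. Bmp2, Bmp7 and Tgfbr3 have no window there, so that peaks at their promoters could not be counted. Tgfbr3 and Bmp7 each had a peak whose summit lay near a gene end, 19 bp and 448 bp outside it. Of the 8 windows, 1 overlapped a peak, that of Bmpr1a, where the peak covered 239 of the 250 bases and its summit lay 80 bp before the start. The share of all windows that overlap a WT peak was not worked out, so nothing is read from that count. The nearest windows without a peak were those of Tgfb2, with a peak 232 bp from the window and a summit 615 bp after the start, and of Bmpr2, with a peak 405 bp from the window and a summit 719 bp before the start. These 3 windows are shown because a peak lies in them or next to them, each on the strand of its gene and ending at the base before the start. Capitals mark GGCGCC, a GC-rich element bound by SMAD proteins.
Bmpr1a, chr14:34502547-34502796, minus strand: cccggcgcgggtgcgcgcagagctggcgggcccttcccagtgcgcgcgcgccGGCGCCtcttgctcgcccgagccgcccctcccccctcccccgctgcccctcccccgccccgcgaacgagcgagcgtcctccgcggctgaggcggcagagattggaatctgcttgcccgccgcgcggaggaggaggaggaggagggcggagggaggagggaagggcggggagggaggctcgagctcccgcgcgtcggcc
Bmpr2, chr1:59764029-59764278, plus strand: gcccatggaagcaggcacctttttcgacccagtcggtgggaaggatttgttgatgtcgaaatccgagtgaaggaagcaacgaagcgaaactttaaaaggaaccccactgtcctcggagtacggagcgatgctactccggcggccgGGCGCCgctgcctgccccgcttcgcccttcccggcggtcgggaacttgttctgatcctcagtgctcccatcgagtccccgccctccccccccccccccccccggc
Tgfb2, chr1:186705990-186706239, minus strand: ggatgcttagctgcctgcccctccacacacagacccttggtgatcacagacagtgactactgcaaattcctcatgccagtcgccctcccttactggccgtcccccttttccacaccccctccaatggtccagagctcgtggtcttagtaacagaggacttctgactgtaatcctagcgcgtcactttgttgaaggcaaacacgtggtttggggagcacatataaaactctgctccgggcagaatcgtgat
GGCGCC stood in the windows of Bmpr1a (bases 53 to 58), Bmpr2 (bases 146 to 151) and Tgfbr1, 3 of 8 windows, and in 9.59% of the 32851 windows of the same length in the table. It is its own reverse complement, so that both strands are the same search. The 3 windows had a higher GC content than 98.3% (Bmpr1a), 80.8% (Bmpr2) and 95.8% (Tgfbr1) of all windows. Windows of like GC content were not compared. That Tgfbr1 window lay 49083 bp from the nearest Tgfbr1 peak. GATAAG (bound by GATA factors, in 6.55% of all windows), CATTCC (TEAD factors, 12.6%), GGTGTGA (T-box factors, 3.33%) and GTCTAGAC (a SMAD palindrome, 0.167%) were searched on both strands and found in 0 of the 8. The Bmpr1a window had a GC content of 78.8% and 36 CpG, that of Bmpr2 64.0% and 22 CpG, and that of Tgfb2 53.6% and 8 CpG, where the median GC content of all windows was 52.4%. A match of letters is a description and not a binding site, and the sequence under the other peaks was not analysed here.

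Tgfb2 had the most peaks of the 10 genes and also the strongest. Its 13 peaks were reached or exceeded by 83 of the 7128 genes with a peak, itself included. The gene lies on chromosome 1 at 186622787 to 186709697, on the minus strand. Of its peaks, 9 lay beyond the 3′ end at 12674 to 187841 bp from the gene and 4 lay inside it. The strongest, at 186586748 to 186587789, was 1042 bp wide and lay 35516 bp beyond the 3′ end. Its fold enrichment over background, the value the authors' peak caller gave at the summit, was 16.8, the rank 67 of all WT peaks, with a -log10 q of 90.96. The second, at 186555504 to 186556082, had 9.39 and lay 67019 bp from the gene. All other Tgfb2 peaks had 2.45 to 5.41. The next protein-coding gene from the 9 outer peaks, Rrp15, was 110973 to 286140 bp away. The promoter table places the start of Tgfb2 at 186705989, inside the gene body of the gene table. A peak at 186705246 to 186705758 (4.18) followed that start by 615 bp and another at 186702986 to 186703405 (2.45) followed it by 2902 bp. Whether peaks inside genes lie in exons or introns was not analysed here, because the gene table gives the ends of genes and no exons.

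**Figure D1:**
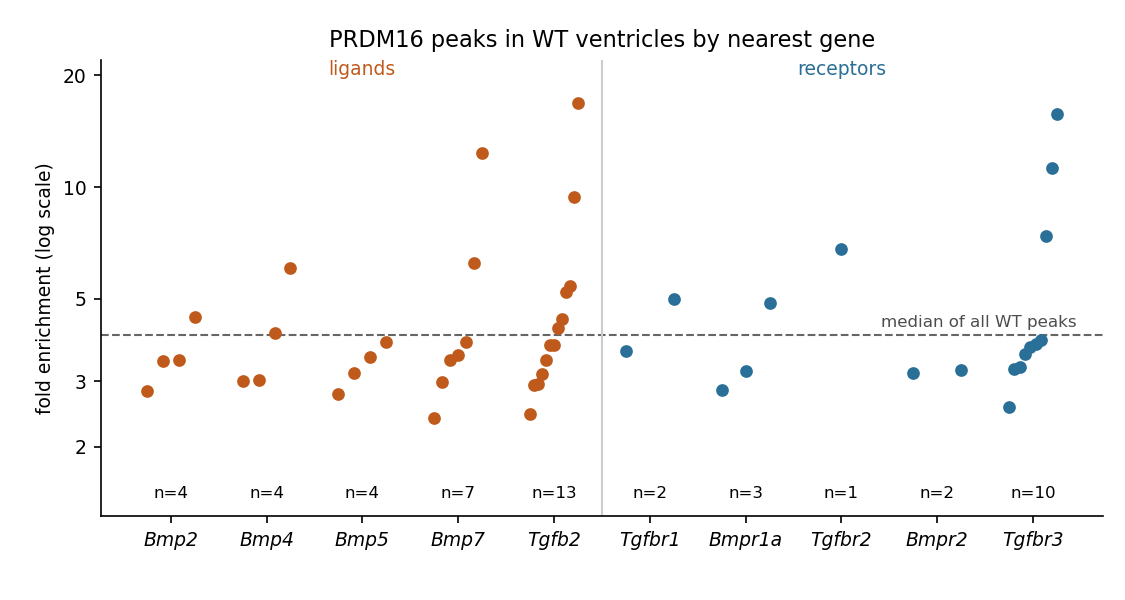
Fold enrichment of each of the 50 peaks (points, log scale) by nearest gene, with the number of peaks and, dashed, the median of all WT peaks (4.0). Tgfb2, Bmp7 and Tgfbr3 have peaks above 10, with the highest at 16.8, 12.4 and 15.7, and no other gene has one above 6.83.

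The BMP ligands divided by position. Bmp7, on chromosome 2 at 172868012 to 172940321, had 7 peaks, 4 of them inside the gene, 1 at 448 bp from one end and 2 beyond the other end. Its strongest peak, at 172862438 to 172863443, was 1006 bp wide, lay 5008 bp from the gene and had a fold enrichment of 12.4 (rank 234, -log10 q 85.3). A second peak inside the gene, at 172875852 to 172876106, reached 6.23, and the other 5 lay between 2.39 and 3.82. Bmp5, on chromosome 9 at 75775365 to 75900316, had 4 weak peaks of 2.77 to 3.83, gathered around its start. The strongest of them lay 6178 bp before the start, at 75769060 to 75769339, and the other 3 followed the start by 1029, 3625 and 6329 bp.

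Bmp2 and Bmp4 are short genes in wide stretches without other protein-coding genes, and their peaks lay far off. None of the 4 Bmp2 peaks was inside the gene (chromosome 2 at 133552159 to 133562896). They lay at 188424 to 277603 bp on its side of lower coordinates, and the next gene, Fermt1, was 328520 to 417699 bp from them. Their fold enrichment was 2.82 to 4.46, with the highest at 133274386 to 133274638. Of the 4 Bmp4 peaks, 1 lay inside the gene (chromosome 14 at 46383525 to 46390669), 3648 bp after the start, with a fold enrichment of 4.05. The other 3 lay 65989, 239367 and 316254 bp beyond the 3′ end. The most distant, at 46067173 to 46067464, was the strongest of the Bmp4 peaks with 6.05, while the next gene, Ddhd1, was 409128 bp from it.

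Among the receptors, Tgfbr3 held 10 of the 18 peaks and the 3 strongest. The gene lies on chromosome 5 at 107106567 to 107289629. The peak at 107051613 to 107052583, 971 bp wide and 54474 bp outside the gene, had a fold enrichment of 15.7 (rank 92, -log10 q 96.8). It belonged to a group of 5 peaks between 44006 and 57807 bp from the gene, in which the peak at 107062059 to 107062875 reached 7.37. Cdc7, the next protein-coding gene, was 64320 to 78121 bp from these 5 peaks, and at the peak furthest out the distances were 57807 bp to Tgfbr3 and 64320 bp to Cdc7. Inside the gene, the peak at 107129240 to 107129678 reached 11.2, and the summit of a peak at 107289281 to 107289873 (3.27) lay 19 bp outside the end of higher coordinate. The remaining 6 peaks had 2.56 to 3.88.

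The type I and type II receptors had 1 to 3 peaks each, mostly weak. Bmpr1a had 3 peaks, all inside the gene, and the one at the promoter shown above (chromosome 14 at 34502346 to 34502785) was the strongest with 4.88. Bmpr2, on chromosome 1, had 2 peaks of 3.16 and 3.22, at 1341 and 719 bp before its start. Tgfbr1, on chromosome 4, had a peak of 4.98 inside the gene at 47402304 to 47402902 and a weaker one of 3.63 at 22737 bp beyond its 3′ end. Tgfbr2 had 1 peak, on chromosome 9 at 116135166 to 116135495, with 6.83 and 40032 bp after the start.

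**Figure D2:**
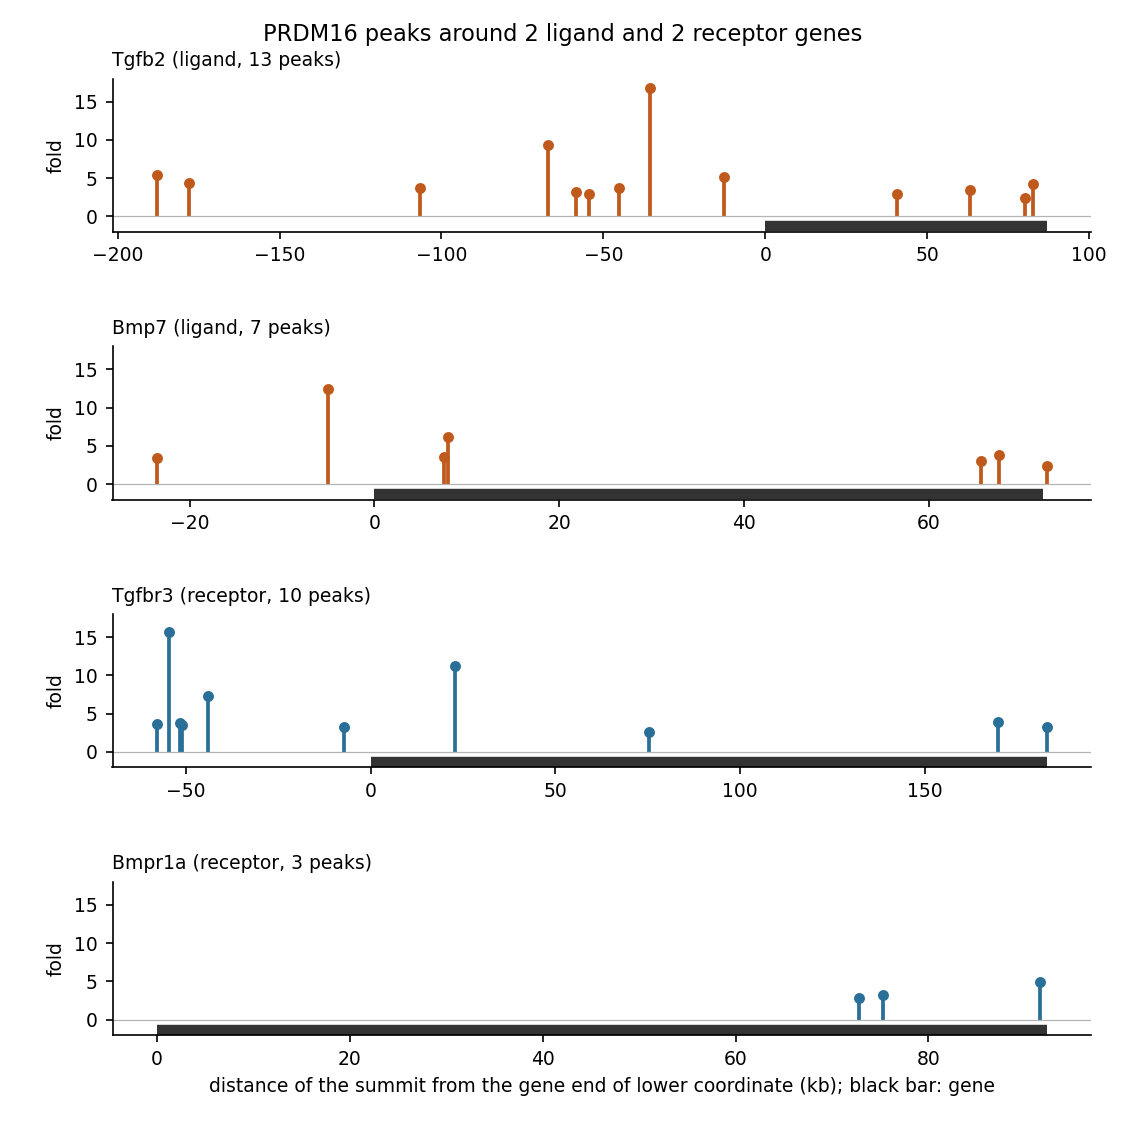
Fold enrichment of each peak (vertical lines) against the distance of its summit in kb from the gene end of lower coordinate, for the ligands Tgfb2 and Bmp7 and the receptors Tgfbr3 and Bmpr1a, with the gene as a black bar. The strongest peaks of Tgfb2, Bmp7 and Tgfbr3 lie outside the genes, at 35516, 5008 and 54474 bp, and the strongest of Bmpr1a lies 710 bp inside one end of the gene.

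Ligand and receptor peaks had like median strength, and a larger share of the ligand peaks lay far from the gene. Ligand peaks had a median fold enrichment of 3.51 and receptor peaks of 3.66, and both were below the 4.0 of all WT peaks. A fold enrichment of at least 5 was reached by 7 of 32 ligand peaks (21.9%) and 4 of 18 receptor peaks (22.2%), against 26.1% of all WT peaks. More than 50000 bp from the gene lay 13 ligand peaks (40.6%) and 4 receptor peaks (22.2%), against 15.6% of all WT peaks, and all 4 of these receptor peaks were of Tgfbr3. Within 1000 bp of a gene end lay 1 ligand peak (3.12%) and 3 receptor peaks (16.7%), against 16.4% of all WT peaks. These ends are those of the gene table. The Tgfb2 peak from 186705246 is not counted, at 4323 bp from such an end, though it lay 615 bp after the start in the promoter table. Inside genes were 12 ligand peaks (37.5%) and 8 receptor peaks (44.4%), against 58.9% of all. Peaks of a gene share its locus and are not independent, and these contrasts were not tested. Without Tgfbr3, 5 of 8 receptor peaks lay inside genes and 0 lay beyond 50000 bp, and without Tgfb2, 8 of 19 ligand peaks lay inside genes and 7 beyond 50000 bp.

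Peak numbers are given next per length of sequence, since the genes differ in how much sequence lies nearest to them. Ligand genes had 1.49 peaks per 100 kb of the sequence nearest to them (2.15 Mb in all), receptor genes had 1.95 (0.924 Mb), and all chromosomes together had 0.646. Since the genes were proposed with their peaks known, nothing is read from a density above that of all chromosomes. The order of the classes rested on Tgfbr3, since the other receptor genes had 1.21, below the value of the ligand genes. The ligand genes without Tgfb2 had 1.05. Tgfbr3 (3.78), Tgfb2 (3.76), Bmpr1a (3.01) and Bmp7 (2.85) had the densest sequence. Bmp2 (0.512) and Tgfbr2 (0.342) were below the value of all chromosomes. Bmp2 thus had 4 peaks in 781 kb, while Bmpr1a had 3 in 99.8 kb.

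**Figure D3:**
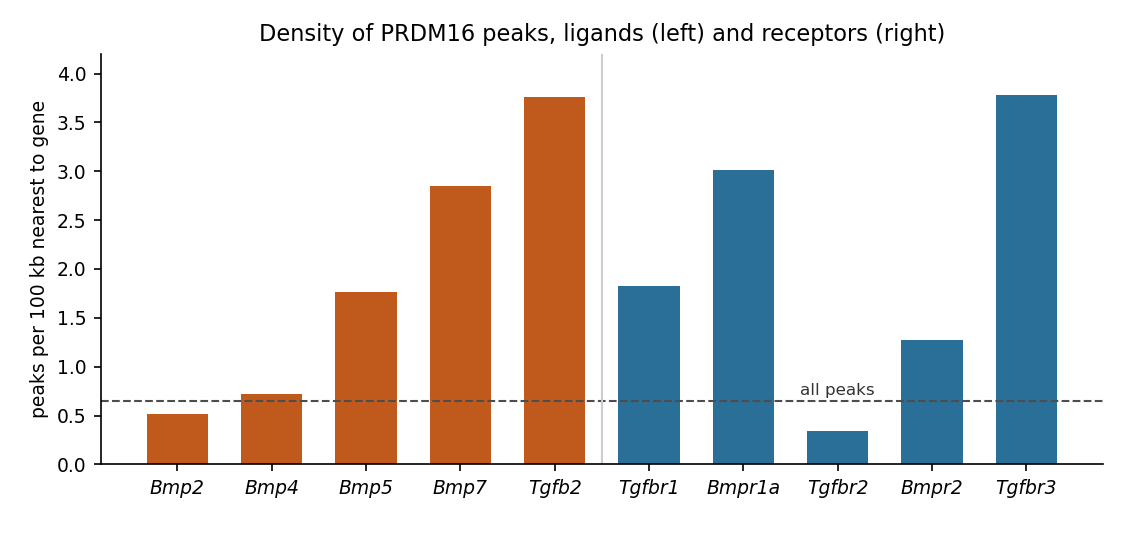
Peaks per 100 kb of sequence nearest to each gene (bars, ligands left and receptors right), with the value over all chromosomes dashed (0.646). The bars of Tgfb2 (3.76) and Tgfbr3 (3.78) are the highest of each class and those of Bmp2 (0.512) and Tgfbr2 (0.342) are the lowest.

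The peaks of the 10 genes were also set beside the peak list of the knockout. In Prdm16cKO ventricles 0 of the 330 peaks had one of the 10 genes as nearest, against 50 of the 17587 WT peaks. The knockout list is so much shorter that this count of 0 says little about these genes. None of these 50 WT peaks overlapped a knockout peak by 1 bp or more, against 1.12% of all WT peaks. The 50 peaks lie at 10 genes and are not independent, so no upper limit is put on that share. Beside that background, a count of 0 in 50 does not set the 10 genes apart. No knockout peak lay within 1000 bp of the 50 either. With 1 knockout library and no value per library in either list, the difference was not tested, and the depth behind both lists is unknown.

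The comparison of RV with LV asked whether PRDM16 signal at the same peaks differs between the ventricles, and at these genes no region passed the test. By the authors' deposited table, none (0) of the 50 regions had an adjusted p under 0.05, as did 0% of all regions, and 0 had an unadjusted p under 0.05, against 0.483% of all. The smallest unadjusted p among them in the authors' deposited table was 0.191. The RV and LV values resolve into whole reads of each library, and these were tested with limma (2 libraries of each ventricle, pseudocount 1 added to normalized reads before the log2). It called 0 of the 50 regions at an adjusted p under 0.05, against 0.0284% of all regions, and 1 at an unadjusted p under 0.05, against 6.32%. That region was higher in RV, as were 3.18% of all regions at the same limit. The lowest limma adjusted p among the 50 was 0.78.

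At the strongest Tgfb2 peak the normalized reads were 71.0 and 64.6 in RV libraries A and B, against 46.1 and 46.9 in LV libraries A and B. Both RV libraries lay above both LV libraries. The log2 RV over LV was 0.53 in limma (SE 0.31, 95% interval -0.11 to 1.17, adjusted p = 0.818), which leaves room for no difference and for more than a 2-fold one. The strongest Bmp7 peak had 112 and 118 in the RV libraries, against 94.5 and 77.7 in the LV libraries, again without overlap. Its log2 was 0.42 (SE 0.33, interval -0.26 to 1.10, limma adjusted p = 0.882). At the strongest Tgfbr3 peak the libraries overlapped, with 47.6 and 47.3 in RV, against 63.3 and 42.5 in LV (log2 -0.13, interval -0.78 to 0.53, limma adjusted p = 0.975). The sign at Tgfbr3 hung on LV library A, without which the log2 was 0.16.

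The single region with an unadjusted p under 0.05 was a weak Tgfb2 peak at 186516094 to 186516294, 106632 bp from the gene, with a fold enrichment of 3.75. It held 12 and 9 reads in the RV libraries A and B, against 3 and 4 in the LV libraries. That came to 10.4 and 8.68 normalized reads in RV and 2.23 and 5.86 in LV, with a log2 of 1.16 (SE 0.56, limma adjusted p = 0.78). Without LV library A the log2 was 0.61, without RV library A 1.04 and without RV library B 1.27, and in these 3 cases the unadjusted p was no longer under 0.05. Without LV library B the log2 was 1.70 and the unadjusted p stayed under 0.05, while at pseudocount 5 (log2 0.71) it did not. Among regions averaging 8 reads or more, the highest log2 RV over LV in the authors' deposited table were 0.54 and 0.41 at the strongest Tgfb2 and Bmp7 peaks and 0.45 at a Bmp7 peak at 172935449 to 172935769. The lowest were -0.76 and -0.28 at the Tgfb2 peaks nearest to its start, at 186702986 and 186705246, and -0.31 at the Tgfbr3 peak inside the gene at 107129240. With each library left out in turn, the limma log2 of the Tgfb2 region from 186586748 was 0.47 to 0.60, that from 186702986 was -1.32 to -0.30 and that from 186705246 was -0.55 to -0.0095. The values nearest to 0 at the last 2 were both found without RV library B. The peak at 186702986 had 14.7 and 6.75 in RV, against 20.8 and 16.1 in LV (log2 -0.81, SE 0.41, limma adjusted p = 0.786). None of these passed.

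At the promoter peak of Bmpr1a the RV libraries had 16.5 and 19.3 normalized reads, against 16.4 and 13.2 in the LV libraries (log2 0.26, interval -0.49 to 1.01, limma adjusted p = 0.957). The RV values lay just above the LV values. Near the ends of other genes, the Bmpr2 peak from 59763367 had 12.1 and 4.82 in RV, against 8.19 and 7.33 in LV, and the Tgfbr3 peak from 107289281 had 21.7 and 18.3 in RV, against 18.6 and 17.6 in LV. The Bmp7 peak from 172940677 held few reads, 2 and 4 in RV libraries A and B, against 7 and 3 in LV libraries A and B. These are reads before the library factors. In normalized reads both LV libraries lay above both RV libraries at this Bmp7 peak. The strongest peaks of the remaining genes overlapped between RV and LV libraries except at Bmp2. There RV had 7.79 and 4.82, against 3.72 and 2.93 in LV, at 9 and 5 reads in RV, against 5 and 2 in LV (log2 0.73, SE 0.62, limma adjusted p = 0.892).

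**Figure D4:**
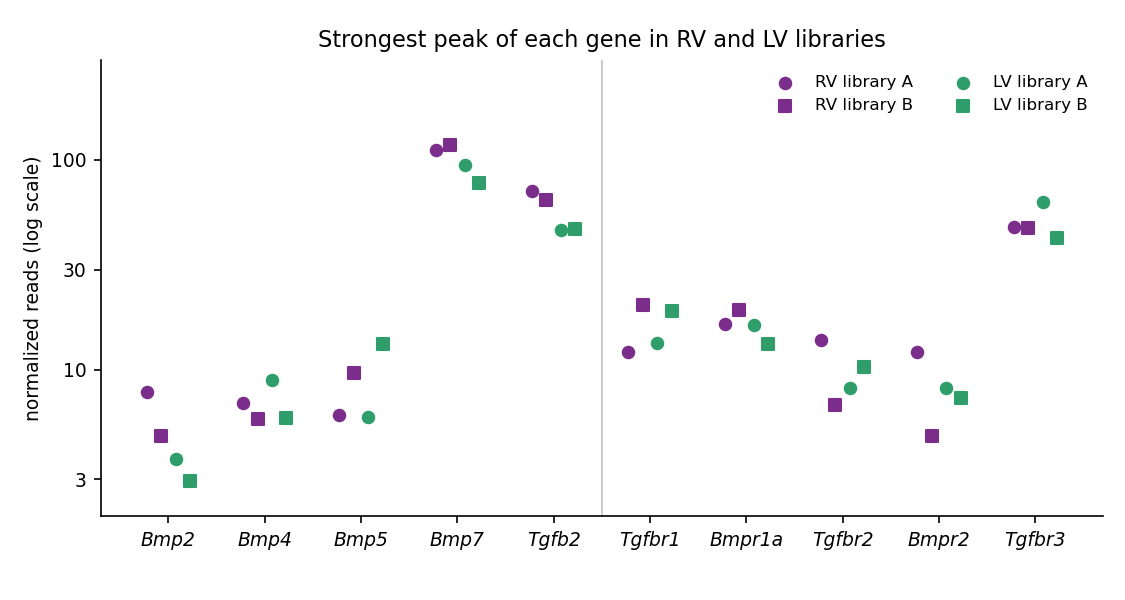
Normalized reads (log scale) at the strongest peak of each gene in the RV libraries (purple) and the LV libraries (green), with library A as circles and library B as squares. At Bmp7 the RV libraries had 112 and 118 and the LV libraries 94.5 and 77.7, and at Tgfb2 the RV libraries had 71.0 and 64.6 and the LV libraries 46.1 and 46.9.

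By class, 19 of 32 ligand regions (59.4%) and 9 of 18 receptor regions (50%) had the higher value in RV, against 49.8% of all regions. The median log2 RV over LV was 0.06 at ligand regions, 0.06 at receptor regions and -0.0028 over all regions. Ligand regions spread more widely (SD 0.59) than receptor regions (SD 0.27), where the SD over all regions was 0.63. A log2 of at least 1 in size was seen at 4 ligand regions and 0 receptor regions, against 10.6% of all regions. These 4 were 2 Tgfb2 peaks, a Bmp5 peak from 75781673 (log2 1.61) and a Bmp7 peak from 172875367 (-1.11), and they were named after their values were seen. All 4 held few reads, such as 5 and 7 in RV, against 2 and 1 in LV, at Bmp5. The RV and LV libraries did not overlap at 13 ligand regions (40.6%) and 2 receptor regions (11.1%), against 35.4% of all regions. Of these, 8 ligand regions (25%) and 2 receptor regions (11.1%) had both RV libraries above both LV libraries, against 17.6% of all. The other 5 ligand regions, and 0 receptor regions, had both LV libraries above both RV libraries, as did the rest of the 35.4% over all. The difference between the classes was not tested.

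Summed over regions, the ligand genes had 434 and 414 normalized reads in the RV libraries A and B, against 371 and 353 in the LV libraries, without overlap. The receptor genes had 211 and 210 in the RV libraries, against 231 and 189 in the LV libraries, with overlap. The sums over all WT peaks were 244000 and 258300 in RV, against 246000 and 269900 in LV. Ligand reads per receptor read were 2.05 and 1.97 in the RV libraries, against 1.61 and 1.87 in the LV libraries. With Bmp7 left out the ratio was 1.38 and 1.24 in the RV libraries, against 1.05 and 1.26 in the LV libraries, which overlap. Summed over each gene, the value was higher in RV at all 5 ligand genes (log2 0.18 to 0.38) and at Bmpr1a (0.17), Tgfbr2 (0.16) and Bmpr2 (0.03), and higher in LV at Tgfbr1 (-0.11) and Tgfbr3 (-0.02). Among the ligand genes the libraries overlapped at Bmp5, with 25.98 and 25.08 summed normalized reads in RV libraries A and B, against 16.38 and 27.84 in LV libraries A and B. The RV values there lay below that of LV library B. At Bmp4 the sums were 26.85 and 27.97 in RV libraries A and B, against 26.8 and 20.51 in LV libraries A and B. RV library A and LV library A were thus nearly equal there. Among the receptor genes the libraries did not overlap at Bmpr1a, with 27.71 and 32.8 in RV, against 27.54 and 26.37 in LV. They overlapped at Tgfbr1, Tgfbr2, Bmpr2 and Tgfbr3. Since the genes were chosen with earlier results known, no p is given for these sums. Each sum gives most weight to the strongest peak. At Bmp7 the strongest peak gave 112 and 118 of 142.9 and 153.4 in RV, against 94.5 and 77.7 of 130.3 and 114.3 in LV. At Tgfb2 it gave 71.0 and 64.6 of 220 and 188.1 in RV, against 46.1 and 46.9 of 185.3 and 174.4 in LV. Of the 7 Bmp7 regions 3 were higher in RV and 4 in LV. The share of all genes with a higher sum in RV was not worked out here, so nothing is read from that count.

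**Figure D5:**
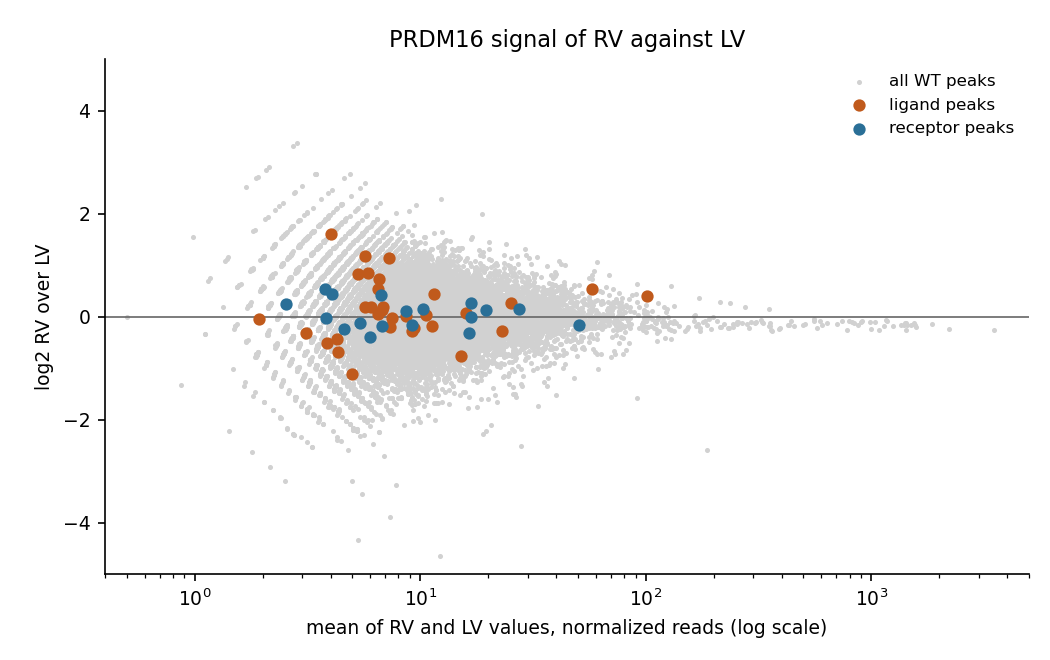
The log2 of RV over LV against the mean of both values in normalized reads (log scale) for all WT peaks (grey), ligand peaks (orange) and receptor peaks (blue), from the authors' deposited table. The peaks of the 10 genes lie within the spread of all peaks, with log2 values of -1.11 to 1.61 at ligands and -0.39 to 0.54 at receptors.

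Of the other genes with a peak, those most like Tgfb2 in peak number, highest fold enrichment and log2 RV over LV of the summed values were Tanc1 (13 peaks, highest 15.3), Ppp1r12b (10 peaks, 17.5), a regulatory subunit of myosin phosphatase, and Gadd45g (14 peaks, 19.3), a stress-response gene. They lay at a distance of 0.345, 0.38 and 0.383, in SDs of these 3 measures over genes with a peak. Those most like Tgfbr3 were Celf2 (10 peaks, 15.6), an RNA-binding protein, Hunk (10 peaks, 15.2), a kinase, and Tbx20 (10 peaks, 14.6), a T-box factor of the heart, at distances of 0.0696, 0.0879 and 0.20. The distances were taken among 7127 other genes, and the RV and LV values rest on 2 libraries each.

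Other genes of the pathway were taken from 4 lists and had peaks to differing extents, beside 32.6% of all protein-coding genes. Other ligands of the family had a peak at 11 of 28 genes (39.3%). This list counts Bmp1 (1 peak, 2.93), which encodes a protease and not a ligand of the family. Tgfb1 and Tgfb3, the other TGF-beta ligands, had none, so that Tgfb2 was the only one of the 3 with a peak. The strongest other ligand was Bmp10, a growth factor of trabecular muscle, with 4 peaks and a highest fold enrichment of 10.7, followed by Gdf6 (4 peaks, 6.60) and Bmp6 (1 peak, 6.48). Other receptors had a peak at 10 of 13 genes (76.9%), among them Acvr2a, an activin type II receptor, with 6 peaks (7.24), and Acvr1, a BMP type I receptor, with 1 (6.12). Extracellular regulators had one at 12 of 24 genes (50%), among them Fstl3, a follistatin-like activin inhibitor (10.1), Bambi, a pseudoreceptor that dampens TGF-beta signals (10 peaks, 9.66), Ltbp1, which binds latent TGF-beta (8 peaks, 8.54), and Nog, a BMP antagonist (5 peaks, 4.55), while Chrd, also a BMP antagonist, had none. Signal transducers had one at 11 of 12 genes (91.7%), with 16 peaks at Smad6, an inhibitory SMAD (9.80), and 11 at Smad3, which carries TGF-beta signals (9.27). That list counts Ski, Skil, Smurf1 and Smurf2 beside the SMAD genes. The strongest peaks of Bambi and Acvr2a lay 149930 and 396813 bp from these genes. Of the 45 peaks of extracellular regulators 1 overlapped a knockout peak, at Bambi (chromosome 18 at 3638887 to 3639233). In the other lists 0 did, against 1.12% of all WT peaks. For RV against LV limma called 0 regions of the 4 lists at an adjusted p under 0.05. At an unadjusted p under 0.05 it gave 4 of 21 regions of other ligands, with Bmp1 counted, and 2 of 21 of other receptors. It gave 3 of 45 of extracellular regulators and 3 of 52 of signal transducers, against 6.32% of all regions.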

How the data were processed

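PRDM16 ChIP-seq of mouse ventricles was analysed from the peak lists of WT and knockout and from values for RV and LV at each WT peak. Per the submitters' processing notes, which give no role or order, the tools were MACS2 2.1.1.20160309, DESeq2, BWA 0.7.12-r1039 and HOMER, and the builds mm10 and GRCm38. No source used here says how replicates were pooled. The deposited peak lists hold for each peak its summit, a fold enrichment, a -log10 q and a score (10 times the -log10 q, rounded down). The deposited RV and LV table, per the file headers, holds a signal for LV and RV, log2 values and the authors' p-value and adjusted p-value. Its log2FC is log2 of RV over LV, positive where RV is the higher, and the test behind its p is not named.

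Each RV or LV value was the mean over libraries of reads times a library factor, plus 0.5, with 1 solution in whole reads for 100% of regions (tolerance 1e-07). The factors were 0.866 and 0.965 in RV libraries A and B and 0.744 and 1.47 in LV libraries A and B, and normalized reads are reads times the factor. limma 3.58.1 (R 4.3.3, mean-variance trend, pseudocount 1, Benjamini-Hochberg over 17587 regions) was checked on simulated data. Its log2 is a mean of logs and can differ slightly from the table's. Sequence nearest to a gene was measured in steps of 100 bp. Python 3.11.15, numpy 2.4.6, pandas 2.3.3 and matplotlib 3.10.9 were used.

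The genes, lists and tests were chosen with earlier results of these data known. Described beyond their counts were the strongest peak of each gene, regions with an unadjusted p under 0.05, the 3 highest and 3 lowest log2 at a mean of at least 8 reads, peaks within 1000 bp of a gene end, and others named for their position. Alternatives were other distance rules, thresholds, pseudocounts, scalings and leaving out a library. Inputs were not used here.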

Additional observations from a re-analysis of the deposited data

How the results depend on the processing

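The assignment of peaks depended on limits of distance and strength. With summits within 50000 bp of the gene, 19 peaks stayed at ligands and 33 at all 10 genes, and within 10000 bp 15 and 27. At a -log10 q of at least 5 there were 16 at ligands, 9 at receptors and 25 in all, with a median fold enrichment of 4.44 at ligands and 4.98 at receptors. Within 50000 bp the medians were 3.54 at ligands and 3.45 at receptors, the other order than over all their peaks. At a fold enrichment of at least 5 there were 7, 4 and 11, at 5 of the 10 genes. These limits remove peaks by construction. Distance to the nearest gene end again gave 50 peaks, and 0 overlapped a knockout peak under each overlap rule. The median WT peak held 6 to 10 reads per library, which limits the precision of a value at a single weak region.

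For RV against LV, limma called 0 regions of the 10 genes at an adjusted p under 0.05 under each of the 9 alternatives, with 0 to 3 at an unadjusted p under 0.05. Over all regions it called 5, but 90 without LV library A, 22 without LV library B, 0 without either RV library, 14 with pseudocount 5, 8 among regions averaging 8 reads or more, 1 with pseudocount 0.1 and 0 with no mean-variance trend. Leaving out a library leaves 1 residual degree of freedom, and the lone library is assumed to vary like those of the other ventricle. The median log2 ranged from -0.0282 (without RV library B) to 0.1948 (without LV library A) at ligand regions and from 0.0166 to 0.1689 at receptor regions, at the same libraries left out. Of 149 values of 17 named regions, 135 kept their direction and 14 did not, at 7 regions with a limma adjusted p of at least 0.963. With equal totals of reads the log2 was 0.0105 at the Tgfbr1 region from 47402304 and 0.0332 at the Bmpr2 region from 59763367, where pseudocount 5 gave 0.0247. Leaving out 1 library gave -0.5868 to 0.5855 at that Bmpr2 region and -0.3724 to 0.3233 at that Tgfbr1 region. It gave -0.4371 to 0.0967 at the Bmp4 region from 46067173, -0.7102 to 0.3182 at the Bmp5 region from 75769060 and -0.3915 to 0.5468 at the Tgfbr2 region from 116135166. At Tgfbr3 it gave -0.4077 to 0.1558 from 107051613 and -0.7158 to 0.2484 from 107129240. The cause was not tested. No paired analysis was possible because the RV and LV values carry no replicate numbers.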
